A study of Homo sapiens with 12 samples.

Results

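The response to YKL-06-102 was measured by comparing 3 RNA libraries of MV4-11 cells exposed to 200 nM of this compound for 6 h with 3 libraries of cells exposed to the vehicle, 0.1% DMSO, for 6 h. MV4-11 is an established human acute myeloid leukaemia line of monocytic character, and its fusion of KMT2A and activating duplication within FLT3 are shared by every group. The series describes YKL-06-102 as a phthalimide conjugate specific for the kinase CDK6, and 6 further libraries, 3 with 200 nM of the related conjugate BSJ-03-123 and 3 with 200 nM of the CDK4/6 inhibitor palbociclib, entered the fit and served for comparison at the same time. The labels give 1 line, so the results are those of MV4-11 alone. All 58051 genes of the deposited count table were taken, and the 14214 that passed a filter on low counts were tested. They held 99.9% of the counts, and the remaining genes are described only where named. Levels are given as CPM, the share of a library's scaled counts that a gene takes, and since they are not divided by gene length they are compared between groups and not between genes. Values after a level are standard deviations (SD) over 3 libraries and values after a log2 fold change, YKL-06-102 over DMSO unless another compound is named, are standard errors (SE). A gene passed when its p from edgeR's quasi-likelihood test, adjusted by Benjamini and Hochberg over all tested genes, was under 0.05, and "rose" and "fell" are used only of such genes.

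CDK4 and CDK6 bind D-type cyclins in G1 and phosphorylate RB and its relatives, which releases E2F transcription factors to switch on the genes that copy DNA. Blocking these kinases keeps RB active and lowers E2F targets in cells with intact RB. Phthalimide conjugates join a ligand of the target to a ligand of cereblon, the substrate receptor of a ubiquitin ligase, so that the target is tagged for the proteasome, and cereblon ligands can also direct zinc-finger proteins such as IKZF1 to the same fate. The table measures RNA and says nothing of protein levels.

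The 6 libraries held 18764307 to 25539858 counts, with 23416204 to 24350966 in those of YKL-06-102. DMSO replicate 2 stood apart from the other 2 DMSO libraries: its chi-square per degree of freedom was 5.87 against DMSO replicate 1 and 8.91 against replicate 3, where that pair had 1.82 and the pairs of YKL-06-102 libraries had 1.72 to 2.94. Its deviation followed GC content, and GC also differed between the groups: in the lowest of 4 equal GC classes the YKL-06-102 libraries lay 0.061 to 0.096 below the DMSO mean (medians of log2 CPM). The part of GC content in the results was measured by a second fit with these trends removed, given beside the counts below. Of 14 defining markers of myeloid blasts 13 were tested, of which 8 rose and 1 fell, with a summed level of 2864 to 2895 CPM in YKL-06-102 libraries and 2385 to 2419 CPM in DMSO libraries. Of 15 lymphoid markers 7 were tested, with a summed level of 56.4 to 61.3 CPM in YKL-06-102 libraries and 51.7 to 59.4 CPM in DMSO libraries, most of it from NKG7, and CD3G, CD2, MS4A1 and LCK had 0 counts. Of 15 erythroid and platelet markers 4 were tested, with 37.7 to 39.4 CPM in YKL-06-102 libraries and 37.3 to 42.8 CPM in DMSO libraries, and GATA1, HBA1 and HBB had 0 counts. Of 15 stromal and epithelial markers 5 were tested, with 138.7 to 145.4 CPM in YKL-06-102 libraries and 154.6 to 155.6 CPM in DMSO libraries. The counting strand is not given, so genes that share exonic bases with a neighbour of more counts are uncertain, here PPP1R13L, NR1H3, CCNE2, GINS2, FEN1, CHAF1B, CHEK1, FANCI, CCND1, ETV4, HLA-DMA, MXD3 and CRBN. The labels do not say that the replicates were separate cultures, so the p-values rest on library to library spread, which could be only technical.

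With YKL-06-102, 2215 genes (15.6% of those tested) were higher and 3034 (21.3%) lower than with DMSO. Most changes were small: 80.3% of the 5249 genes called lay within 1.5-fold, and the median size was 1.23-fold for those higher and 1.20 times for those lower. At least 2-fold differences were found in 220 higher genes (1.55%) and 165 lower genes (1.16%), and at least 4-fold differences in 37 higher and 8 lower genes. The 3 libraries of the groups did not overlap for 6353 genes (44.7%). With library totals in place of the between-library scaling the calls were 2875 higher and 2425 lower, so that 54.2% of them were higher, against 42.2% with it. With no filter on low counts 51.7% were higher. With GC trends removed the calls were 2581 higher and 2853 lower. Leaving out DMSO replicate 2 gave 2754 higher and 2829 lower.

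**Figure D1:**
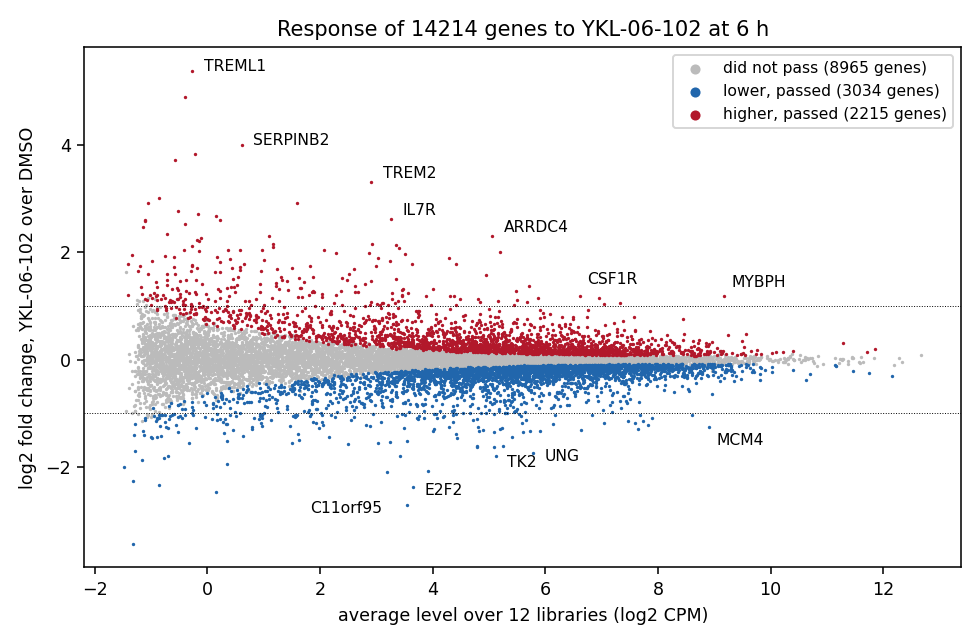
Log2 fold change of each of 14214 tested genes, YKL-06-102 over DMSO (vertical axis), against its average level in log2 CPM over 12 libraries (horizontal axis), coloured by whether it passed the test, with dotted lines at 2-fold. The 2215 higher genes reach farther from 0 than the 3034 lower ones, mainly among genes of low level. Of genes with a DMSO mean of 100 CPM or more, 18 passed at least 2-fold lower, MCM4 among them. In that class 3 passed at least 2-fold higher.

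Higher and lower genes came from different ranges of expression. Among 1886 tested genes with a DMSO mean under 1 CPM, 117 were at least 2-fold higher and 37 at least 2-fold lower, whereas among 2558 genes of 100 CPM or more 3 were at least 2-fold higher and 18 lower. In this abundant class 398 genes were higher and 930 lower. The filter let low genes in when either group was high, so a gene near 0 in DMSO could enter only by being higher with a compound, and these shares are descriptions. In the lowest of 4 equal GC classes 303 genes were higher and 1056 lower, and in the highest 780 were higher and 599 lower. When GC trends were removed, 9 of the genes open to naming by the rule given below lost their call and 2 gained one.

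Genes of DNA replication fell together, where 21.3% of all tested genes fell and 15.6% rose. Origin licensing and the replicative helicase, the machine that loads onto origins in G1 and unwinds DNA in S phase, had 26 of 28 tested members lower and 1 higher, with a median log2 fold change of -0.96, where the median of all tested genes was -0.02. MCM6, a helicase subunit, had 169.5, 175 and 164 CPM in the YKL-06-102 libraries, against 418, 406 and 411 CPM in the DMSO libraries. The groups were far apart and each was tight, a log2 fold change of -1.28 ± 0.03 (edgeR quasi-likelihood adjusted p = 1.41e-21). MCM4, another subunit, had 419.8, 429 and 419.7 CPM with YKL-06-102 and 997, 1027 and 999.7 CPM with DMSO (-1.25 ± 0.03). Further subunits moved by similar amounts, MCM2 by -1.22 ± 0.03, MCM3 by -1.14 ± 0.03 and MCM7 by -1.02 ± 0.03. CDC45, which completes the active helicase, fell further, to 25.7, 26.2 and 25.6 CPM in the YKL-06-102 libraries, against 78.7, 82.1 and 78.1 CPM in the DMSO libraries (-1.63 ± 0.05, edgeR adjusted p = 3.27e-21). GINS2, of the same complex, changed by -1.60 ± 0.06. The exception was ORC4, a subunit of the origin recognition complex, at 0.18 ± 0.07 (edgeR adjusted p = 0.0315), a call not kept under 5 of 13 alternatives.

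Behind the helicase, the polymerases, the clamp and the enzymes of lagging-strand synthesis had 29 of 31 members lower and 1 higher (median -0.76). Of all tested genes 21.3% were lower and 15.6% higher. PCNA, the sliding clamp, had 208, 210.3 and 197 CPM in YKL-06-102 libraries, against 431, 439.5 and 437 CPM in DMSO libraries, a log2 fold change of -1.09 ± 0.03. CLSPN, claspin, which couples the fork to the checkpoint, changed by -1.44 ± 0.05, FEN1, the flap nuclease, by -0.98 ± 0.03, LIG1, the ligase that seals nicks, by -0.79 ± 0.03 and the fork protein TIMELESS by -0.76 ± 0.03. The small polymerase delta subunit POLD4 rose, to 8.97 ± 0.245 CPM with YKL-06-102, against 6.88 ± 0.443 CPM with DMSO (0.38 ± 0.10, edgeR adjusted p = 0.00379).

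The supply of DNA precursors split into members that fell and members that did not. Among its 26 tested genes the median was -0.38, and 19 fell while 1 rose, where 21.3% and 15.6% of all tested genes did. TYMS, which makes thymidylate, had 80.9, 82.3 and 81.4 CPM with YKL-06-102 and 204, 204 and 201 CPM with DMSO (-1.32 ± 0.03, edgeR adjusted p = 7.72e-22). The ribonucleotide reductase subunits changed by -1.15 ± 0.03 for RRM2 and -0.84 ± 0.03 for RRM1, and DUT, which clears dUTP, by -0.63 ± 0.04. SAMHD1, which degrades deoxynucleotides, went the other way: it had 693, 693 and 679 CPM in YKL-06-102 libraries, against 513, 500.3 and 495 CPM in DMSO libraries (0.45 ± 0.03). The groups did not overlap for any gene of this paragraph.

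All 20 tested genes that package and methylate newly copied DNA fell (median -0.59), where 21.3% of all tested genes did. CHAF1B and CHAF1A, subunits of the chromatin assembly factor that places histones behind the fork, changed by -1.46 ± 0.06 and -0.94 ± 0.03, the histone chaperone NASP by -1.03 ± 0.03, and UHRF1, which recruits the maintenance methyltransferase to hemimethylated DNA, by -1.02 ± 0.05. DNMT1, that methyltransferase, had 457, 455 and 466 CPM with YKL-06-102, against 712, 714 and 719.6 CPM with DMSO (-0.64 ± 0.03, edgeR adjusted p = 1.86e-16). ATAD2, a bromodomain ATPase, fell by less than CHAF1B, to 193 ± 3.38 CPM with YKL-06-102, against 332 ± 18.8 CPM with DMSO.

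Checkpoint and repair genes fell in 31 of 32 cases (median -0.83) and none rose, where 21.3% of all tested genes fell and 15.6% rose. UNG, which removes uracil from DNA, was the lowest: it had 39.8, 41.8 and 40.7 CPM in YKL-06-102 libraries, against 134, 142 and 130.2 CPM in DMSO libraries (-1.73 ± 0.04, edgeR adjusted p = 9.77e-22). The checkpoint kinase CHEK1 changed by -1.34 ± 0.05, BRCA1 by -1.19 ± 0.04 and FANCI, of the Fanconi pathway, by -1.03 ± 0.04. PARP1, which marks DNA breaks with ADP-ribose, changed least of those named, at -0.30 ± 0.03. Outside the lists, WDR76 had 21.4, 21.7 and 21.4 CPM with YKL-06-102 and 68.4, 66.3 and 65.2 CPM with DMSO (-1.63 ± 0.05).

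**Figure D2:**
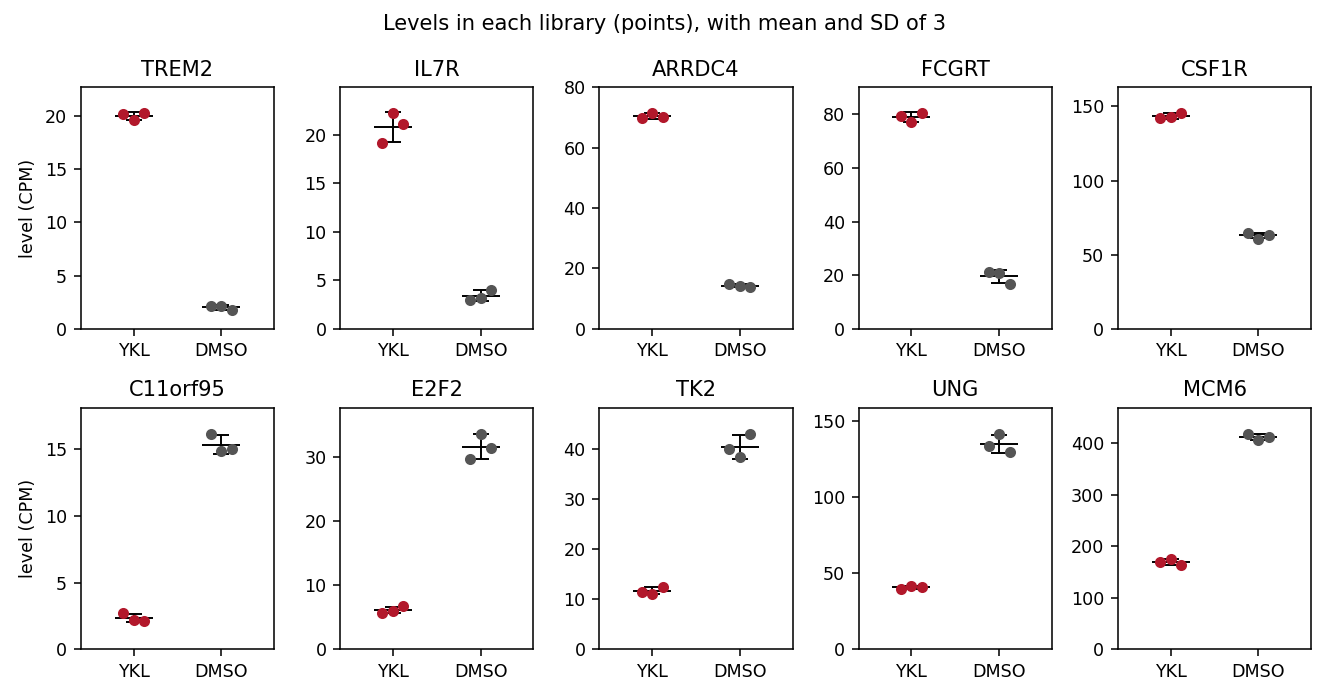
Level of 10 genes in CPM (vertical axis, from 0) in each YKL-06-102 library (left) and each DMSO library (right) as points, with a bar for the mean and whiskers for the SD of 3 libraries. In the upper row all YKL-06-102 points lie above all DMSO points, and in the lower row all lie below.

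Promoter sequence was set beside these changes for genes whose RefSeq promoter window, 250 bases before to 50 after the first listed start (GRCh38.p14), was at hand, 9585 of 11799 tested protein-coding genes. The letters TTTGGCGC, TTTCGCGC, TTTCCCGC or TTTGCCGC on either strand, the core that E2F factors bind, were in 5.62% of these windows. They were in 20 of 49 windows (40.8%) of the licensing and polymerase lists, in 9.05% of the windows of lower genes and in 3.44% of those of higher genes. The letters TTTGAA or TTCGAA on either strand, the cell cycle homology region (CHR) of G2 and mitosis genes, were in 11.2% of all windows, in 2 of 49 (4.08%) of the replication lists and in 37 of 51 (72.5%) of the G2 and mitosis list. CHR letters were in 14.4% of the windows of lower genes and in 8.78% of those of higher genes. The letters CCAAT, also searched, were in 36.7% of all windows. They were in 57.1% of those of the replication lists and 76.5% of those of the G2 and mitosis list. E2F sites on opposite strands can overlap, as in MCM6, and a match is a description of letters and not a bound site. Shown are 4 genes that fell with E2F letters in capitals and 2 G2 and mitosis genes, chosen after their values were seen, with CHR letters in capitals, each as the 250 bases before the start, 5′ to 3′ on the strand of the gene.

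E2F1 chr20:33686386-33686635 strand -: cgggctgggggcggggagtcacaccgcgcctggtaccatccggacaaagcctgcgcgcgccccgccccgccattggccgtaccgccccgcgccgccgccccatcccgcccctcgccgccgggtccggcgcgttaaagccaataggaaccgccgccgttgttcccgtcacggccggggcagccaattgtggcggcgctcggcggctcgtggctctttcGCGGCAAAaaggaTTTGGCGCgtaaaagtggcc

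E2F2 chr1:23531234-23531483 strand -: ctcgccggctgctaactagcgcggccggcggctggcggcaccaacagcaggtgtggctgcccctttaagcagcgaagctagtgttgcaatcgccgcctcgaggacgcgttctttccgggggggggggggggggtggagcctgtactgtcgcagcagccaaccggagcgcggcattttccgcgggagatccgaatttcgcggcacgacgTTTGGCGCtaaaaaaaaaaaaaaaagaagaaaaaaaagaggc

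MCM6 chr2:135876444-135876693 strand -: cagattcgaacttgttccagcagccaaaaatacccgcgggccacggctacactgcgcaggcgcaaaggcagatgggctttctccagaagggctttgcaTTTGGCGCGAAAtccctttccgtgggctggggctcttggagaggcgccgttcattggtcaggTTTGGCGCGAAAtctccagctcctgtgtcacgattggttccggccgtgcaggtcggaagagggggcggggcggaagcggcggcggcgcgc

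PCNA chr20:5126623-5126872 strand -: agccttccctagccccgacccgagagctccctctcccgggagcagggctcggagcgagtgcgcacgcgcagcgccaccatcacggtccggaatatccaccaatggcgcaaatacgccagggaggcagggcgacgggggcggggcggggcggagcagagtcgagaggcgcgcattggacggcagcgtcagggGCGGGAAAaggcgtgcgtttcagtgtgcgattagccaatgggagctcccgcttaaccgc

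PLK1 chr16:23678639-23678888 strand +: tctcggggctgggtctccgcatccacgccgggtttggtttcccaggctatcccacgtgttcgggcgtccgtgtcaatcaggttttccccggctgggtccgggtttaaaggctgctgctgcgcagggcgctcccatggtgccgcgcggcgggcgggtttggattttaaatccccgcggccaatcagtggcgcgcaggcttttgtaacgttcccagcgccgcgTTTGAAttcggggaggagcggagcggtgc

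CCNB2 chr15:59104896-59105145 strand +: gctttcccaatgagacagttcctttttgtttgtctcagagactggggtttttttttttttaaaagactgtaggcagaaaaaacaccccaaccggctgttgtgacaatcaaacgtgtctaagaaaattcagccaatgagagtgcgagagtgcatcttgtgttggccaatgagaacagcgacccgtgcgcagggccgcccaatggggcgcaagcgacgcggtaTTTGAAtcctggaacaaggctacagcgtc

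E2F1 and E2F2 are E2F factors whose own promoters carry these letters. MCM6 carries 4 matches that overlap in pairs, and PCNA carries 1. The RNA of E2F1 fell to 29.6 ± 1.21 CPM with YKL-06-102, against 90.7 ± 2.01 CPM with DMSO (-1.62 ± 0.05), and the values of MCM6 and PCNA stand above and those of E2F2 below. MCM6 also holds the letters TTCGAA, at -246 from the start and left in lower case, and none of the other 3 genes shown for E2F letters holds CHR letters. PLK1, the mitotic kinase, did not pass the test, at -0.08 ± 0.03 (edgeR adjusted p = 0.0512), and CCNB2, cyclin B2, fell by 0.13 on the log2 scale (edgeR adjusted p = 0.00697).

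In the G2 and mitosis list 55 of 60 genes fell and none rose, where 21.3% of all tested genes fell and 15.6% rose. The median log2 fold change was -0.35, against medians of -0.96 and -0.76 in the licensing and polymerase lists. The members with the smallest p were MYBL2, a transcription factor of the G2 programme that E2F also drives, with 110.5, 115 and 112 CPM in YKL-06-102 libraries, against 245, 272 and 250.4 CPM in DMSO libraries (-1.18 ± 0.04), and CDC25A, the phosphatase that activates CDK2 in late G1, at -1.05 ± 0.04. CCNA2, cyclin A2, changed by -0.57 ± 0.03, its kinase CDK1 by -0.61 ± 0.04, the condensin subunit NCAPG by -0.69 ± 0.04 and TOP2A, which untangles chromosomes, by -0.33 ± 0.03. The 5 members that did not pass, named after their values were seen, were CCNB1, CDC20, CDC25B, PLK1 and PIF1. CCNB1, cyclin B1, had 183, 191 and 189 CPM with YKL-06-102 and 195, 195 and 192 CPM with DMSO, and CDC20, the activator of the anaphase-promoting complex, had 184, 188 and 182 CPM with YKL-06-102 and 177, 187 and 177 CPM with DMSO. For these 2 genes the libraries of the groups lay close together (95% intervals of the log2 difference -0.11 to 0.02 and -0.03 to 0.09).

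The module of D cyclins, CDKs, RB and E2F factors had 20 of 35 tested members lower (57.1%) and 5 higher (14.3%), median -0.32. For all tested genes these shares were 21.3% and 15.6%, so the share of this module that rose was no larger than that of all genes. E2F2, an activating E2F, was the gene next to the lowest among those whose average log2 CPM reached 2. It had 5.69, 5.93 and 6.67 CPM in YKL-06-102 libraries, against 29.7, 33.6 and 31.3 CPM in DMSO libraries, 5.19 times lower (-2.38 ± 0.08, edgeR adjusted p = 8.93e-20). CCNE2, cyclin E2, which drives entry into S phase with CDK2, had 10.6, 11.6 and 10.3 CPM with YKL-06-102 and 47.5, 41.9 and 47.3 CPM with DMSO (-2.07 ± 0.08), and its relative CCNE1 fell less, to 17.6 ± 1.65 CPM with YKL-06-102, against 31.4 ± 0.638 CPM with DMSO (-0.83 ± 0.06). E2F1 changed by -1.62 ± 0.05, the repressor E2F8 by -1.25 ± 0.06, and RBL1, the p107 pocket protein, by -0.90 ± 0.05. RB1 itself changed by -0.36 ± 0.04 and CDK4 by -0.36 ± 0.03.

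The members that rose were CCND2, DYRK1B, CDK6, CDC37 and CCND1. CCND2, cyclin D2, had 63.7, 60.2 and 65.02 CPM with YKL-06-102 and 37.2, 35.7 and 39.3 CPM with DMSO, with no overlap (0.76 ± 0.05, edgeR adjusted p = 1.11e-13). DYRK1B, a kinase linked to quiescence, had 18.6 ± 0.8098 CPM with YKL-06-102 and 10.2 ± 0.468 CPM with DMSO (0.86 ± 0.07). The transcript of the target, CDK6, had 508, 485 and 503 CPM in YKL-06-102 libraries, against 448, 421 and 467 CPM in DMSO libraries, a small rise (0.16 ± 0.03, edgeR adjusted p = 3.41e-04). CDC37, the kinase cochaperone, rose by 0.13 ± 0.03 and CCND1 by 0.24 ± 0.07. CDKN1A, the p21 inhibitor, did not pass, at 0.04 ± 0.05 (edgeR adjusted p = 0.565), nor did CCND3, at 0.09 ± 0.04 (edgeR adjusted p = 0.101). CCND3 passed as higher without DMSO replicate 2, with library totals and with no filter.

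**Figure D3:**
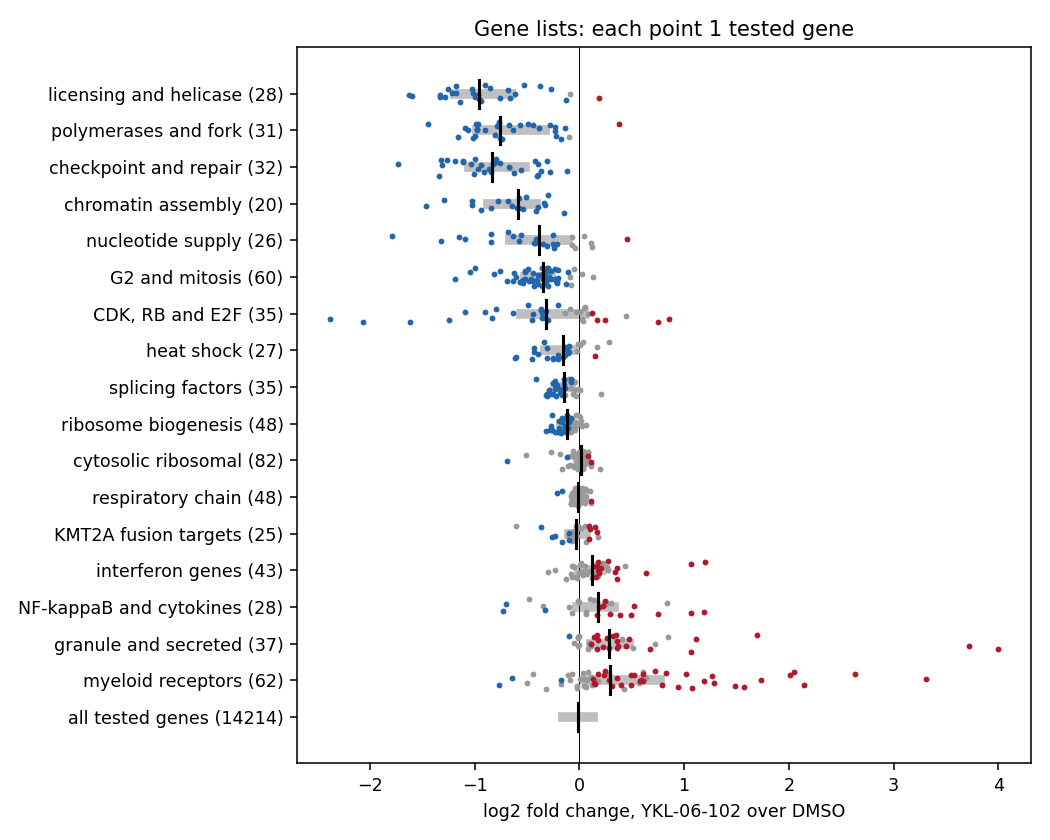
Log2 fold change of each tested member (points) of 17 gene lists, YKL-06-102 over DMSO, with the number of tested members in brackets, the median as a vertical tick and the middle 50% as a grey bar, and all tested genes at the bottom. Blue points passed as lower, red as higher and grey did not pass. The replication lists sit left of 0, with medians from -0.96 to -0.38, and the myeloid receptors right of 0, with a median of 0.30.

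Among genes whose average log2 CPM reached 2 and whose libraries did not overlap, the 12 that rose most were ranked. They included several members of the list of monocyte and macrophage surface receptors, not all of them particular to these cells. TREM2, a lipid-sensing receptor of macrophages that signals through TYROBP, had 20.2, 19.6 and 20.3 CPM in YKL-06-102 libraries, against 2.09, 2.18 and 1.74 CPM in DMSO libraries, 9.89-fold higher (3.31 ± 0.13, edgeR adjusted p = 4.96e-20). Every YKL-06-102 library lay far above every DMSO library. IL7R, the interleukin-7 receptor alpha chain, had 19.1, 22.2 and 21.1 CPM with YKL-06-102 and 2.93, 3.19 and 4.01 CPM with DMSO (2.63 ± 0.11), and FCGRT, the neonatal Fc receptor that recycles IgG, had 79.4, 76.99 and 80.5 CPM with YKL-06-102 and 21.1, 20.7 and 16.6 CPM with DMSO (2.01 ± 0.06). SIGLEC1, a sialic acid receptor of macrophages, had 20.8, 20.97 and 23.5 CPM with YKL-06-102 and 5.44, 4.76 and 4.61 CPM with DMSO (2.14 ± 0.09). These genes were chosen without overlap between the groups, so the separation is a description. In GRCh38 TREM2 is ENSG00000095970, chromosome 6, 41158506 to 41163186, IL7R is ENSG00000168685, chromosome 5, 35852695 to 35879603 and FCGRT is ENSG00000104870, chromosome 19, 49506816 to 49526333.

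Of 80 genes written into the receptor list 62 were tested, with a median of 0.30. Of these 34 rose (54.8%) and 3 fell (4.84%), where 15.6% and 21.3% of all tested genes did. Of the 18 not tested, 16 had some counts and 2 had none, so the list is seen only where it is expressed. CSF1R, which binds the growth factors CSF1 and IL-34, had 142, 143 and 146 CPM in YKL-06-102 libraries, against 64.5, 60.8 and 63.4 CPM in DMSO libraries (1.19 ± 0.04, edgeR adjusted p = 8.93e-20). FCGR2A, an activating Fc receptor, changed by 1.58 ± 0.06, and its counts are uncertain because close paralogs can share its reads. CD33, a sialic acid receptor of myeloid cells, rose by 0.28 ± 0.03 and TYROBP by 0.18 ± 0.04, much less than its partner TREM2. The members that fell were the chemokine receptor CXCR4, with 123, 133 and 125 CPM with YKL-06-102 and 214, 225 and 209 CPM with DMSO (-0.77 ± 0.04), PTAFR, the receptor of platelet-activating factor (-0.65 ± 0.07), and CD300LF (-0.18 ± 0.04). ITGAL, the integrin alpha chain of LFA-1, had 2527 ± 34.1 CPM with YKL-06-102 and 2571 ± 44.4 CPM with DMSO and did not pass (edgeR adjusted p = 0.569). PTPRC, the pan-leukocyte CD45, fell by 0.25 on the log2 scale.

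The others of these 12, all above an average log2 CPM of 2, came from several processes. ARRDC4, an alpha-arrestin, had 69.7, 71.5 and 70.1 CPM with YKL-06-102 and 14.8, 14.2 and 13.9 CPM with DMSO (2.30 ± 0.05, edgeR adjusted p = 5.33e-23). ANPEP, the aminopeptidase CD13 and also a member of the receptor list, had 8.57 ± 0.4497 CPM with YKL-06-102 and 2.08 ± 0.3699 CPM with DMSO (2.05 ± 0.14). LGALS3BP, a secreted galectin ligand, changed by 1.99 ± 0.13, MCEMP1, a myeloid membrane protein, by 1.99 ± 0.11, ACVRL1, a receptor of the TGF-beta family, by 1.97 ± 0.10, FRMD4A by 2.08 ± 0.09 and NR1H3, the oxysterol receptor LXR-alpha, by 1.90 ± 0.09. PPP1R13L, an inhibitor of p53 family proteins, had 17.9 ± 0.889 CPM with YKL-06-102 and 3.98 ± 0.188 CPM with DMSO. Its counts are uncertain, since CD3EAP on the opposite strand shares 58 exonic bases with it and has more counts.

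Below an average log2 CPM of 2, some genes with next to no reads in DMSO had clear counts with the compound. SERPINB2, a protease inhibitor of activated monocytes, had 105, 100 and 115 counts in YKL-06-102 libraries, against 7, 4 and 6 in DMSO libraries. SPARC, a secreted matrix protein, had 44, 41 and 42 counts with YKL-06-102 and 2, 3 and 3 with DMSO. Both genes were close to 0 in DMSO and passed the filter through the libraries where they were high, so their counts are given as a description, and a count of a few reads sets the size of any fold change. TREML1, a TREM family member, had 50, 52 and 59 counts with YKL-06-102 and 2, 0 and 1 with DMSO. SIGLEC11 had 50, 48 and 51 counts with YKL-06-102 and 1, 2 and 1 with DMSO, and SIGLEC16, its near-identical partner, had 42, 39 and 57 with YKL-06-102 and 0, 1 and 7 with DMSO. Reads of SIGLEC11 and SIGLEC16 can be exchanged, so the 2 are best read as a pair.

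Granule and secreted myeloid proteins rose in 21 of 37 tested cases (56.8%) and fell in 1 (2.70%), with a median of 0.29. Among all tested genes 15.6% rose and 21.3% fell. The changes were mostly small amounts of abundant transcripts. PRTN3, proteinase 3, had 949, 909.7 and 930.1 CPM in YKL-06-102 libraries, against 615, 749 and 636 CPM in DMSO libraries (0.48 ± 0.05), and LYZ, lysozyme, had 841, 858 and 822 CPM with YKL-06-102 and 675, 632 and 664 CPM with DMSO (0.36 ± 0.03). CHI3L1, a chitinase-like secreted protein, had 241 ± 8.02 CPM with YKL-06-102 and 115 ± 1.02 CPM with DMSO (1.06 ± 0.04, edgeR adjusted p = 2.11e-17). TGFBI rose by 0.67 ± 0.05 and AZU1, azurocidin, by 0.14 ± 0.04. The member that fell, MS4A6A, fell by 0.09 on the log2 scale and lost its call under 9 of 13 alternatives.

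Among 46 tested myeloid transcription factors 22 rose (47.8%) and 8 fell (17.4%), where 15.6% and 21.3% of all tested genes did (median 0.10). With library totals as the only scaling, and without YKL-06-102 replicate 1 or replicate 3, the number that fell was 4, and without DMSO replicate 2 it was 5. SPI1, PU.1, the factor that commits cells to the myeloid lineage, had 428, 439 and 444 CPM with YKL-06-102 and 305, 339 and 300 CPM with DMSO (0.47 ± 0.04, edgeR adjusted p = 2.18e-11). The retinoic acid receptor RARA changed by 0.45 ± 0.04, TFEC, a macrophage relative of MITF, by 0.65 ± 0.05 and STAT3 by 0.39 ± 0.04. GATA2, a factor of stem and progenitor cells, had 5.103 ± 0.543 CPM with YKL-06-102 and 8.17 ± 0.819 CPM with DMSO (-0.69 ± 0.12), IRF1 changed by -0.28 ± 0.05 and AHR by -0.30 ± 0.06.

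The targets of the KMT2A fusion and genes of self-renewal moved little: 5 of 25 tested rose and 6 fell, near the shares of all genes, and none of them by 2-fold. Without DMSO replicate 1 the number higher was 1, and without YKL-06-102 replicate 3 it was 3. MSI2, an RNA-binding protein of stem cells, fell by 0.36 on the log2 scale and DOT1L, the H3K79 methyltransferase, by 0.26. HOXA10 changed by -0.16 ± 0.04 and BMI1 by -0.23 ± 0.06. FLT3 had 386 ± 2.801 CPM with YKL-06-102 and 394 ± 13.9 CPM with DMSO and did not pass (edgeR adjusted p = 0.563). MYC had 504, 516 and 526 CPM with YKL-06-102 and 534, 586 and 538 CPM with DMSO (-0.10 ± 0.03, edgeR adjusted p = 0.0214), a call lost under 7 of 13 alternatives, among them leaving out DMSO replicate 2 or any YKL-06-102 library. Its antagonists of the MXD family were higher, MXD4 by 0.79 ± 0.05, MXI1 by 0.36 ± 0.04 and MXD1 by 0.32 ± 0.05, while MXD3 changed by -0.45 ± 0.07.

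The 12 genes that fell most were taken by the same choice (average log2 CPM of 2 or more, no overlap). Of these C11orf95, CELSR2 and KLC2, like WDR76 above, belonged to none of the lists, and TK2 belonged to the precursor list. C11orf95, a zinc-finger gene, was the lowest of those whose average log2 CPM reached 2, with 2.7, 2.17 and 2.14 CPM in YKL-06-102 libraries, against 16.2, 14.8 and 15.02 CPM in DMSO libraries, 6.53 times lower (-2.71 ± 0.12, edgeR adjusted p = 2.75e-18). TK2, the mitochondrial thymidine kinase, had 11.5, 11.1 and 12.5 CPM with YKL-06-102 and 40.1, 38.4 and 43.1 CPM with DMSO (-1.78 ± 0.06). CELSR2, an adhesion receptor of the cadherin family, had 2.25, 3.54 and 3.33 CPM with YKL-06-102 and 12.7, 13.5 and 12.6 CPM with DMSO (-2.09 ± 0.12). KLC2, a kinesin light chain, had 4.34, 4.05 and 3.79 CPM with YKL-06-102 and 13.5, 15.4 and 12.8 CPM with DMSO (-1.79 ± 0.11). TP73, the p53 relative that E2F1 induces, fell too, to 4.299 ± 0.425 CPM with YKL-06-102, against 12.6 ± 1.8 CPM with DMSO (-1.56 ± 0.11). In GRCh38 C11orf95 is ENSG00000188070, chromosome 11, 63759892 to 63768775 and TK2 is ENSG00000166548, chromosome 16, 66508003 to 66552544. Among weaker genes, SH3PXD2B, a podosome scaffold, had 4, 7 and 5 counts with YKL-06-102 and 24, 33 and 21 with DMSO, and SNPH, syntaphilin, had 1, 1 and 0 counts with YKL-06-102 and 8, 8 and 6 with DMSO.

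By the difference in mean CPM rather than the ratio, the largest changes were in genes of high level. MYBPH, a myosin-binding protein, had 885, 908 and 909 CPM in YKL-06-102 libraries, against 389, 424 and 381 CPM in DMSO libraries (1.18 ± 0.04, edgeR adjusted p = 6.05e-19). FLNA, filamin A, which crosslinks actin, had 2761 ± 42.2 CPM with YKL-06-102 and 2218 ± 100.4 CPM with DMSO (0.32 ± 0.03), SRGN, the proteoglycan core serglycin, rose by 0.19 ± 0.03, FTL, a ferritin chain, by 0.14 ± 0.04, and CNN2, calponin 2, which also binds actin, by 0.76 ± 0.03. The call of FTL was lost with DESeq2 and without DMSO replicate 1 or 3. The largest losses were in HSPA8, the constitutive HSP70, with 4271, 4369 and 4113 CPM with YKL-06-102 and 5271, 5374 and 5141 CPM with DMSO (-0.31 ± 0.03), and HSP90AA1, with 3428, 3447 and 3289 CPM with YKL-06-102 and 4056, 3917 and 4093 CPM with DMSO (-0.25 ± 0.03). TUBB, a beta-tubulin, changed by -0.38 ± 0.03 and NCL, nucleolin, by -0.21 ± 0.03. For each of the 4 that fell, all YKL-06-102 libraries lay below all DMSO libraries.

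HSPA8 and HSP90AA1 are part of a list of chaperones most of which fell. Of 27 tested heat shock proteins and cochaperones 20 fell and 1 rose (median -0.16). Of all tested genes 21.3% fell and 15.6% rose, and of those with a DMSO mean of 100 CPM or more 36.4% fell. HSPH1, the HSP110 exchange factor, had 498, 517 and 492 CPM with YKL-06-102 and 662, 653 and 666 CPM with DMSO (-0.39 ± 0.03, edgeR adjusted p = 1.03e-11), HSPA4L changed by -0.61 ± 0.05, DNAJA4 by -0.43 ± 0.04 and DNAJA1 by -0.31 ± 0.03. HSPA1A, the inducible HSP70, changed by -0.45 ± 0.04, with reads that its copy HSPA1B can share. The member that rose was HSPA5, the chaperone of the endoplasmic reticulum, at 0.15 ± 0.03.

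Genes of RNA splicing and ribosome building fell by small amounts. For comparison, 21.3% of all tested genes fell, and 36.4% of those with a DMSO mean of 100 CPM or more. Of 35 SR and hnRNP splicing factors 23 fell and none rose (median -0.15), with SRSF10 at -0.41 ± 0.04, TRA2B at -0.31 ± 0.03, SRSF7 at -0.31 ± 0.03 and HNRNPF at -0.30 ± 0.03. HNRNPA2B1 had 1577 ± 35.9 CPM with YKL-06-102 and 1900.0 ± 69.7 CPM with DMSO (-0.27 ± 0.03). Of 48 ribosome biogenesis genes 28 fell and none rose (median -0.11), with NOP56 and NOP58, of the snoRNA particles, at -0.27 ± 0.03 and -0.26 ± 0.03 and the nucleolar chaperone NOLC1 at -0.28 ± 0.03. The number was 19 to 27 when 1 library was left out.

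The ribosomal proteins themselves did not follow. Of 82 tested cytosolic ribosomal protein genes 2 rose and 2 fell (median 0.01), shares under those of all genes. Without DMSO replicate 2 the number higher was 30, without DMSO replicate 1 or 3 it was 0, and with library totals it was 15, so this list cannot be read apart from those choices. RPL8 had 2897, 2859 and 2804 CPM with YKL-06-102 and 2721, 3035 and 2618 CPM with DMSO, where DMSO replicate 2 was the highest of the 6. Of 77 mitochondrial ribosomal proteins 3 rose and 18 fell (23.4%, where 21.3% of all genes did), and without DMSO replicate 2 11 rose and 7 fell, while 24 fell without DMSO replicate 3 and 8 and 9 without YKL-06-102 replicate 2 and 3. Of 48 respiratory chain subunits 1 rose and 2 fell, and 6 rose without DMSO replicate 2. Of 34 proteasome subunits none rose and 7 fell (20.6%, near the 21.3% of all genes). Without DMSO replicate 2 the proteasome counts were 6 higher and 4 lower, without DMSO replicate 1 and without YKL-06-102 replicate 1 or 2 they were 3 lower, and without YKL-06-102 replicate 3 they were 1 lower. Of 19 tested genes of the mitochondrial genome 1 fell, and 14 fell without DMSO replicate 2.

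Genes of the cereblon ligase and its reported substrates were examined because the compound is a phthalimide conjugate. Of 28 tested genes 7 rose and 4 fell (median 0.01), where 15.6% and 21.3% of all genes did. The 4 were 1 without DMSO replicate 3 or YKL-06-102 replicate 2 or 3, and 2 without YKL-06-102 replicate 1. With GC trends removed 11 were higher and 1 lower, where 2581 genes of that fit were higher and 2853 lower. CRBN itself did not pass (0.03 ± 0.06, edgeR adjusted p = 0.746). ZNF692, a zinc-finger protein reported as a substrate, had 181, 192 and 202 CPM in YKL-06-102 libraries, against 89.4, 82.4 and 88.6 CPM in DMSO libraries (1.14 ± 0.04, edgeR adjusted p = 3.21e-18). Among the Ikaros family, IKZF1 rose by 0.20 ± 0.03 and IKZF4 by 0.34 ± 0.07. IKZF2 was also called higher (1.77 ± 0.41), at 1.28 ± 0.278 CPM with YKL-06-102 and 0.401 ± 0.312 CPM with DMSO. It had 92 counts over the YKL-06-102 libraries and 23 over the DMSO libraries. A gene this low in DMSO could pass the filter through libraries where it was high, so its values are a description. RNF166 rose by 0.22 ± 0.04 and ZBTB16, the PLZF factor, fell by 0.41 on the log2 scale. These are transcript levels, and the abundance of the substrate proteins was not measured.

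Of 419 tested genes with a ZNF symbol 65 rose (15.5%, where 15.6% of all genes did) and 41 fell (9.79%, where 21.3% did), with a median of 0.02. The number that fell was 25 without YKL-06-102 replicate 1, 27 without DMSO replicate 3 and 27 with no filter on low counts. Without DMSO replicate 2 it was 53. ZNF627 had 62.4, 62.9 and 61.5 CPM with YKL-06-102 and 30.8, 30.1 and 31.4 CPM with DMSO (1.02 ± 0.05), ZNF367 fell to 17.4 ± 0.644 CPM with YKL-06-102, against 45.2 ± 2.72 CPM with DMSO (-1.38 ± 0.07), and ZNF672 changed by -0.85 ± 0.05 and ZNF792 by -1.27 ± 0.15. Among chromatin enzymes 7 of 44 rose (15.9%) and 14 fell (31.8%). EZH2 and SUZ12, of the Polycomb complex that writes H3K27 methylation, changed by -0.68 ± 0.04 and -0.50 ± 0.04, NSD2 by -0.68 ± 0.03 and SETD2 by -0.38 ± 0.04, while the demethylases KDM4A and KDM6B rose by 0.34 ± 0.03 and 0.38 ± 0.05.

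Inflammatory and interferon genes rose in part, where 15.6% of all tested genes were higher and 21.3% lower. Of 28 tested NF-kappaB and cytokine genes 11 rose (39.3%) and 3 fell (10.7%), with a median of 0.18. TNF had 31.8, 30.6 and 30.04 CPM in YKL-06-102 libraries, against 12.1, 15.2 and 12.8 CPM in DMSO libraries (1.19 ± 0.08, edgeR adjusted p = 7.03e-13). TNFAIP2, which TNF induces, changed by 0.75 ± 0.04, ICAM1 by 0.52 ± 0.07 and NFKB2 by 0.49 ± 0.08, while SOD2, also a target of NF-kappaB, changed by -0.33 ± 0.04 and TNFAIP8 by -0.70 ± 0.11. Of 43 interferon-stimulated genes 14 rose (32.6%) and none fell, and the number that rose was 9 without YKL-06-102 replicate 3. IFITM3, an antiviral membrane protein, had 17.7 ± 0.535 CPM with YKL-06-102 and 7.68 ± 0.585 CPM with DMSO (1.20 ± 0.08), with close paralogs that may share reads, and OAS3 and STAT2 changed by 0.63 ± 0.10 and 0.36 ± 0.05. Of 28 antigen presentation genes 10 rose (35.7%) and 3 fell (10.7%), with 16 higher without DMSO replicate 2 and 1 lower without YKL-06-102 replicate 3. CIITA, the master regulator of class II genes, had 60.7, 63.6 and 63.1 CPM with YKL-06-102 and 36.5, 35.1 and 39.8 CPM with DMSO (0.75 ± 0.06), and its targets HLA-DMA, HLA-DRB1 and HLA-DRA rose by 0.62 ± 0.07, 0.33 ± 0.05 and 0.19 ± 0.03, while RFX5, another regulator of class II, changed by -0.29 ± 0.04.

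Signalling lists were mixed, against 15.6% higher and 21.3% lower among all genes. Of 21 genes of FLT3 and STAT5 signalling 7 rose and 4 fell, with STAT5A at 0.38 ± 0.04, the feedback inhibitor SOCS3 at 0.71 ± 0.09 and the survival factor MCL1 at 0.14 ± 0.03 among the higher, and the kinases PIM1 and PIM2 at -0.16 ± 0.04 and -0.21 ± 0.05 among the lower. Of 30 immediate-early and ERK feedback genes 9 rose and 7 fell, and the number lower was 3 without DMSO replicate 2 or YKL-06-102 replicate 3 and 4 without YKL-06-102 replicate 1 or 2. DUSP6, a phosphatase that restrains ERK, had 70.7, 71.5 and 67.3 CPM with YKL-06-102 and 49.5, 52.2 and 48.3 CPM with DMSO (0.48 ± 0.05), TRIB1 and EGR1 changed by 0.57 ± 0.08 and 0.51 ± 0.12, and IER5 and ETV4 by -0.72 ± 0.07 and -0.63 ± 0.10. No member of the ERK list moved by 2-fold.

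Genes of the BCL2 family and the caspases include both survival and death factors. Of 27 tested 13 rose and 5 fell (median 0.08, and -0.02 without DMSO replicate 1), with 2 lower without YKL-06-102 replicate 1 or 2 and 3 lower without DMSO replicate 1 or 2 or YKL-06-102 replicate 3. BCL2L2, the survival factor BCL-W, had 36.5, 37.2 and 37.2 CPM with YKL-06-102 and 26.1, 22.4 and 25.1 CPM with DMSO (0.60 ± 0.06, edgeR adjusted p = 2.81e-09), while BMF, which promotes death, rose by 0.36 ± 0.05 and CASP9 by 0.47 ± 0.07. CASP6, an executioner caspase, changed by -0.94 ± 0.11. Of 32 p53 targets 6 rose (18.8%) and 5 fell (15.6%), near the shares of all genes, 15.6% higher and 21.3% lower. Called members included TP53I3 at 0.62 ± 0.13, BBC3 at 0.41 ± 0.09 and BTG2 at 0.29 ± 0.08 against DDB2 at -0.47 ± 0.06 and AEN at -0.38 ± 0.04.

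Metabolic genes moved mostly by small amounts in both directions. Among all tested genes 15.6% were higher and 21.3% lower. The lysosome, LXR and sterol lists each had a larger share higher than that. Their shares lower lay on both sides of that of all tested genes. Lysosome genes and their regulators rose in 19 of 52 cases and fell in 5: TFE3, which activates lysosome genes, had 56.2, 54.7 and 54.4 CPM in YKL-06-102 libraries, against 31.96, 35.2 and 33.8 CPM in DMSO libraries (0.71 ± 0.05), and SGSH and the cathepsin CTSZ rose by 1.02 ± 0.10 and 0.36 ± 0.03. With library totals as the only scaling 28 rose, and without YKL-06-102 replicate 3 the number lower was 3. Of 24 genes of LXR and lipid handling 7 rose and 6 fell. NR1H3 had 16.6, 15.3 and 16.1 CPM with YKL-06-102 and 4.24, 4.15 and 4.45 CPM with DMSO, its target ABCA1, a cholesterol exporter, and the scavenger receptor CD36 rose by 0.49 ± 0.09 and 0.50 ± 0.05, and PLIN2 and CPT1A changed by -0.38 ± 0.07 and -0.26 ± 0.03. Sterol and fatty acid synthesis had 11 of 34 higher and 6 lower, with FDFT1 at 0.25 ± 0.03 and TMEM97 at -0.46 ± 0.04.

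Of 15 alpha-arrestins and targets of the glucose sensors MondoA and ChREBP, 4 rose and 3 fell. TXNIP, the best known of these targets, had 432, 435 and 429.7 CPM with YKL-06-102 and 338, 337 and 336 CPM with DMSO (0.36 ± 0.03), a far smaller fold change than that of ARRDC4. Glycolysis and pentose phosphate genes were higher in 7 of 30 cases and lower in 11, with HK1 at 0.28 ± 0.04 and SLC16A1, the lactate transporter, at -0.32 ± 0.03. Without DMSO replicate 2 the number higher was 12. ATF4 and amino acid stress genes were higher in 4 of 35 cases, 2 of them without DMSO replicate 3, and lower in 9. CTH, which makes cysteine, had 4.003 ± 0.158 CPM with YKL-06-102 and 1.37 ± 0.122 CPM with DMSO (1.53 ± 0.17), while PSAT1 and MTHFD2 changed by -0.34 ± 0.04 and -0.25 ± 0.03. Of 206 solute carriers 45 rose (21.8%) and 51 fell (24.8%), where 15.6% and 21.3% of all tested genes did, with the folate transporter SLC46A1 at 0.91 ± 0.08, the zinc transporter SLC39A1 at 0.62 ± 0.04 and the nucleoside transporter SLC29A1 at -0.60 ± 0.04.

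Among small gene families, few genes were tested. Of 5 tested SERPINB genes 4 rose (80.0%, where 15.6% of all tested genes did). SERPINB8 rose by 0.37 ± 0.03 and SERPINB1 by 0.18 ± 0.03. The others were SERPINB2 and its neighbour SERPINB10, which shares 547 exonic bases with SERPINB2. SERPINB2 passed the filter through the libraries where it was high, and SERPINB10 averaged only 14.7 counts over 12 libraries. The count of this family is therefore a description. Of 4 tested GIMAP genes GIMAP1 fell, to 2.01 ± 0.161 CPM with YKL-06-102, against 4.21 ± 0.473 CPM with DMSO (-1.07 ± 0.16), GIMAP6 rose by 0.29 ± 0.06 and GIMAP2 by 0.18 ± 0.07, the last a call lost under 8 of 13 alternatives. Of 15 tested replication-dependent histone genes, whose messages mostly lack the poly(A) tail that the library preparation selects, 1 rose and 1 fell. Among the lymphoid markers PAX5, a B-lineage factor, fell to 2.29, 1.41 and 1.89 CPM in YKL-06-102 libraries, against 4.13, 3.79 and 3.74 CPM in DMSO libraries (-1.05 ± 0.16). Of the stromal and epithelial markers PECAM1 passed as lower, at -0.17 ± 0.03.

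Set against the other compounds at the same dose and time, 1476 genes (10.4%) were higher and 1385 (9.74%) lower with YKL-06-102 than with BSJ-03-123, and 1812 (12.7%) were higher and 1695 (11.9%) lower than with palbociclib. The number lower than with BSJ-03-123 was 795 to 840 without any 1 YKL-06-102 library and 903 without BSJ-03-123 replicate 1. The number lower than with palbociclib was 1031 to 1057 without any 1 YKL-06-102 library, 985 without palbociclib replicate 1 and 1052 without palbociclib replicate 2. These 2 comparisons and that with DMSO share the YKL-06-102 libraries, so they are given side by side and not as independent evidence. Most replication genes lay between the other compounds and DMSO. In the licensing and helicase list 22 of 28 genes were higher with YKL-06-102 than with BSJ-03-123 and 22 than with palbociclib, and none was lower, with medians of 0.39 and 0.54. In the polymerase list 25 and 26 of 31 were higher, again with none lower. CCNE2 had 10.8 ± 0.683 CPM with YKL-06-102, 3.45 ± 0.5305 CPM with BSJ-03-123, 1.95 ± 0.446 CPM with palbociclib and 45.6 ± 3.16 CPM with DMSO. UNG had 40.8 ± 1.03 CPM with YKL-06-102, 23.4 ± 1.45 CPM with BSJ-03-123, 21.3 ± 1.09 CPM with palbociclib and 135 ± 5.94 CPM with DMSO, and E2F1 had 29.6 ± 1.21 CPM with YKL-06-102, 17.1 ± 0.398 CPM with BSJ-03-123, 15.7 ± 0.992 CPM with palbociclib and 90.7 ± 2.01 CPM with DMSO. For E2F1 the log2 difference of YKL-06-102 was 0.79 ± 0.06 from BSJ-03-123 (edgeR adjusted p = 1.95e-11) and 0.91 ± 0.06 from palbociclib (edgeR adjusted p = 5.38e-13).

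E2F2 differed from this pattern. It had 6.09 ± 0.511 CPM with YKL-06-102, 6.7 ± 0.142 CPM with BSJ-03-123, 6.57 ± 0.531 CPM with palbociclib and 31.5 ± 1.94 CPM with DMSO. The differences of YKL-06-102 did not pass, at -0.14 ± 0.10 from BSJ-03-123 (95% interval -0.34 to 0.07, edgeR adjusted p = 0.403) and -0.11 ± 0.10 from palbociclib (95% interval -0.31 to 0.10, edgeR adjusted p = 0.499), where CCNE2 differed by 1.65 ± 0.13 and 2.49 ± 0.15. NASP, the histone chaperone, did not pass either, at -0.04 ± 0.03 from BSJ-03-123 (edgeR adjusted p = 0.482) and -0.04 ± 0.03 from palbociclib (edgeR adjusted p = 0.399). CDKN1A had 51.2 ± 0.467 CPM with YKL-06-102, 40.2 ± 1.23 CPM with BSJ-03-123, 40.03 ± 2.21 CPM with palbociclib and 49.7 ± 2.86 CPM with DMSO, so YKL-06-102 differed from the other compounds by 0.35 ± 0.05 and 0.36 ± 0.05.

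C11orf95, TK2, CELSR2 and KLC2 were lower with YKL-06-102 than with both other compounds. C11orf95 had 2.34 ± 0.314 CPM with YKL-06-102, 14.2 ± 0.959 CPM with BSJ-03-123, 15.4 ± 0.233 CPM with palbociclib and 15.3 ± 0.719 CPM with DMSO, and the log2 differences of YKL-06-102 were -2.60 ± 0.12 from BSJ-03-123 and -2.71 ± 0.12 from palbociclib (edgeR adjusted p = 5.78e-17 and 7.91e-18). TK2 had 11.7 ± 0.7104 CPM with YKL-06-102, 41.7 ± 1.14 CPM with BSJ-03-123, 45.9 ± 1.01 CPM with palbociclib and 40.5 ± 2.39 CPM with DMSO. CELSR2 differed by -1.65 ± 0.13 and -1.91 ± 0.12 and KLC2 by -1.59 ± 0.11 and -1.66 ± 0.11. For C11orf95 and TK2 the means of the other compounds and DMSO lay near each other, and that of YKL-06-102 lay well below.

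**Figure D4:**
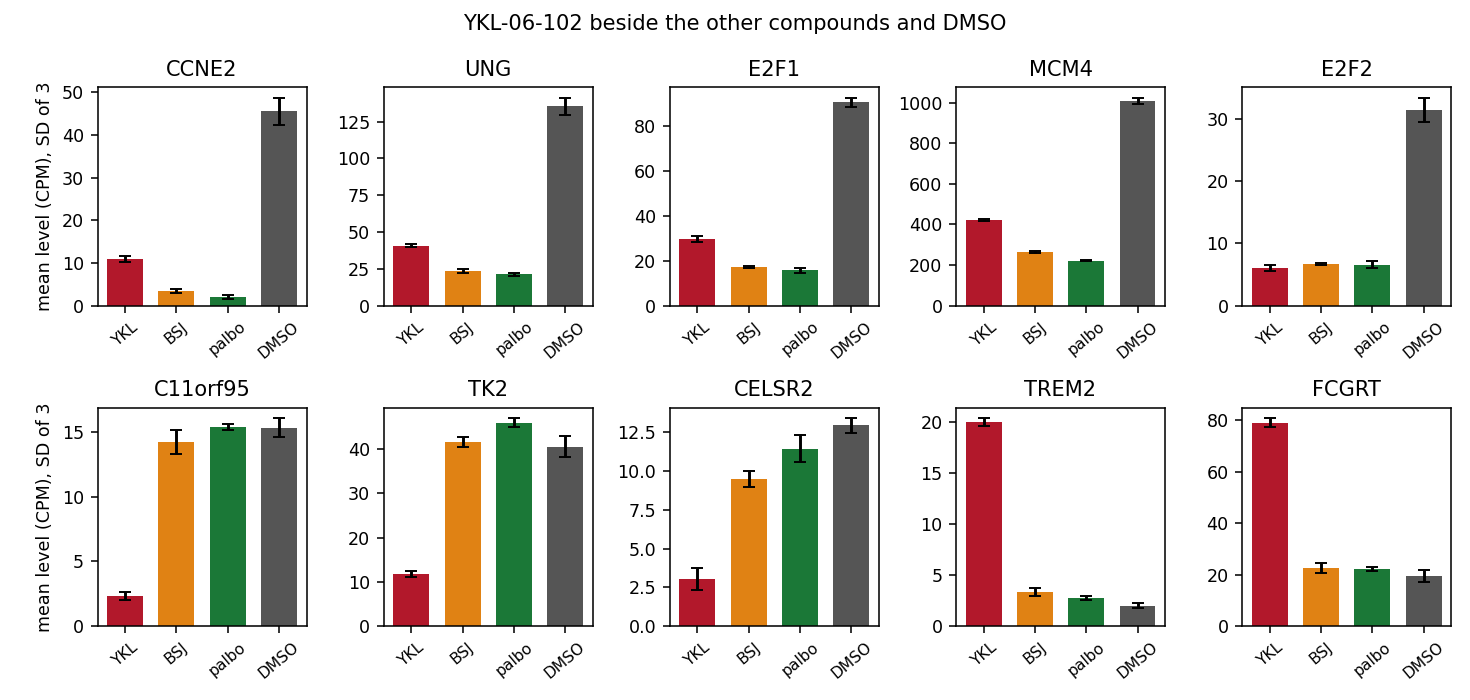
Mean level in CPM (bars from 0, whiskers for the SD of 3 libraries) of 10 genes with YKL-06-102 (YKL), BSJ-03-123 (BSJ), palbociclib (palbo) and DMSO. CCNE2, UNG, E2F1 and MCM4 lie between the other compounds and DMSO with YKL-06-102, E2F2 is low with every compound, C11orf95, TK2 and CELSR2 are lowest with YKL-06-102, and TREM2 and FCGRT are highest with it.

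TREM2, FCGRT, IL7R and CSF1R were also higher with YKL-06-102 than with each other compound. TREM2 had 20.02 ± 0.362 CPM with YKL-06-102, 3.37 ± 0.384 CPM with BSJ-03-123, 2.77 ± 0.178 CPM with palbociclib and 2.001 ± 0.234 CPM with DMSO, and YKL-06-102 differed by 2.57 ± 0.11 and 2.85 ± 0.11 from the other compounds. FCGRT differed by 1.80 ± 0.06 and 1.84 ± 0.06, IL7R by 1.42 ± 0.09 and 2.05 ± 0.10 and CSF1R by 0.64 ± 0.04 and 0.69 ± 0.04. In the whole receptor list 22 of 62 genes were higher than with BSJ-03-123 and 12 lower, where 10.4% and 9.74% of all tested genes were. Against palbociclib 21 were higher and 15 lower, where 12.7% and 11.9% of all tested genes were. The receptor list thus differed from the other compounds in both directions. SERPINB2 averaged 4.43 ± 0.262 CPM with YKL-06-102, 0.386 ± 0.0931 CPM with BSJ-03-123, 0.282 ± 0.0753 CPM with palbociclib and 0.284 ± 0.108 CPM with DMSO. ZNF692 had 192 ± 10.3 CPM with YKL-06-102, 125 ± 6.86 CPM with BSJ-03-123, 87.2 ± 2.502 CPM with palbociclib and 86.8 ± 3.82 CPM with DMSO, with differences of 0.62 ± 0.04 from BSJ-03-123 and 1.13 ± 0.04 from palbociclib.

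The differences of YKL-06-102 from the other compounds did not pass for every gene that rose. DYRK1B differed by 0.07 ± 0.06 from BSJ-03-123 (edgeR adjusted p = 0.537) and -0.08 ± 0.06 from palbociclib (edgeR adjusted p = 0.366), and MXD4 by -0.02 ± 0.05 and -0.14 ± 0.04, and the difference from palbociclib passed (edgeR adjusted p = 0.0199). The CDK6 transcript differed by -0.03 ± 0.03 (95% interval -0.10 to 0.04) and 0.02 ± 0.03 (95% interval -0.05 to 0.09), and neither passed. TXNIP had 432 ± 2.84 CPM with YKL-06-102, 447 ± 4.33 CPM with BSJ-03-123, 482 ± 7.75 CPM with palbociclib and 337 ± 1.31 CPM with DMSO, an order unlike that of ARRDC4, which had 70.4 ± 0.928 CPM with YKL-06-102, 23.7 ± 0.781 CPM with BSJ-03-123, 21.4 ± 0.264 CPM with palbociclib and 14.3 ± 0.481 CPM with DMSO. Of the splicing list 2 genes were higher and 2 lower than with BSJ-03-123, and of the cytosolic ribosomal proteins none was called against it.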

How the data were processed

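Stranded libraries of polyadenylated MV4-11 RNA were sequenced, as stated in the labels. The deposited values are unnormalized read counts for each gene, which the authors made with Trimmomatic 0.36, STAR 2.5.2b and HTSeq on hg38, per the submitters' processing notes. For the counting, the strand setting and the annotation release remain details not given in the sources used here. From these counts, genes with too few reads were left out (filterByExpr, minimum count 10, minimum total 15), libraries were scaled by the TMM method, and 1 quasi-likelihood model of the 4 groups was fitted to all 12 libraries (edgeR 4.0.16 in R 4.3.3), with Benjamini-Hochberg adjustment over all 14214 genes and a threshold of 0.05. Fold changes use a prior count of 0.125, and intervals are 95% intervals with 8 residual degrees of freedom before moderation. The common biological coefficient of variation was 3.08%. The model code was tested on simulated counts. Gene positions, GC content and shared exons come from GENCODE 29 on GRCh38, and promoter sequences from RefSeq on GRCh38.p14, with the first window listed for a gene.

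Genes were named by rule: the 12 highest and 12 lowest fold changes among called genes of average log2 CPM of at least 2 without overlap, the 5 highest and 5 lowest below it, the 6 largest rises and falls in mean CPM, up to 5 called members of each list in each direction by smallest p with the member of highest mean CPM, and a few genes of the pathway. The comparison, the gene lists and the rule were chosen with earlier results of these data known, so list counts are descriptions and no list was tested as a set. Alternatives were DESeq2 1.42.0, limma-voom (limma 3.58.1), library totals, no filter on low counts, the pair of groups alone, a replicate block, leaving out each library in turn and, chosen after seeing the data, removal of GC trends.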

Additional observations from a re-analysis of the deposited data

How the results depend on the processing

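The numbers of genes higher and lower with YKL-06-102 than with DMSO stayed within 1.5 times of 2215 and 3034 under each alternative run. DESeq2 gave 2018 and 2460, limma-voom 2199 and 2998, library totals 2875 and 2425, no filter 2541 and 2379, the 6 libraries alone 2297 and 2474, and removal of GC trends, chosen after seeing the data, 2581 and 2853. Leaving out 1 library gave 1912 to 2754 higher and 2293 to 2829 lower. Against BSJ-03-123, leaving out 1 library gave 795 to 1022 lower, and against palbociclib 985 to 1445 lower, where fewer libraries entered the fit. Deviations of same-numbered libraries of YKL-06-102 and DMSO had correlations of -0.0816, -0.161 and 0.032, and those of differently numbered ones -0.145 to 0.182. No pairing by number was seen. With 3 libraries per group these values cannot tell whether same-numbered libraries shared a culture or a day. A replicate block gave 2215 higher and 3029 lower. Of 338 genes open to naming, 20 lost their call with DESeq2, 17 with library totals, 18 with no filter, 2 with limma-voom, 9 with GC trends removed, 1 with the replicate block, and 15 to 28 when 1 library was left out. Of the genes open to naming none changed sign with a call under the alternatives run. The balance of calls against DMSO did turn: lower genes were more numerous with edgeR's scaling, and higher ones with library totals and with no filter. Medians of lists near 0 changed sign, among them the BCL2 family (0.08, and -0.02 without DMSO replicate 1), ATF4 genes (-0.06, and 0.002 without DMSO replicate 2), cytosolic ribosomal proteins (0.01, and -0.02 without DMSO replicate 3), proteasome subunits (-0.04, and 0.01 with GC trends removed) and mitochondrially encoded genes (-0.09, and 0.03 without DMSO replicate 3). The counts of the replication, mitosis, chaperone, splicing, myeloid receptor and granule lists stayed within 1.5 times in their main direction under each alternative. Genes of a few reads, such as TREML1 and SNPH, are limited by depth, and counts cover RNA of these libraries only.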
